A study of Mus musculus with 13 samples.

Results

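The genes described here are 10 markers of pericytes, among them both subunits of the potassium channel of these cells, out of 52550 genes in the count table of Thy1.2-sorted mouse retinal cells. They were chosen by name, with their rise and fall over postnatal development already known, and were found by matching Ensembl gene IDs to mouse symbols. Each of the 10 had counts in every library of postnatal day (P) 1, P14 and P21. In the libraries of injured adults, 5 of them (Abcc9, Cspg4, Higd1b, Cd248 and Notch3) had 1 or more libraries with no more than 1 count.

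Pericytes are contractile mural cells that sit on the capillary wall inside the basement membrane of the endothelium. In the retina they are recruited by endothelial PDGF, which acts on the PDGF receptor beta, and they take part in control of capillary flow and in maturation of the blood-retina barrier. Their ATP-sensitive potassium channel (K-ATP channel) is an octamer of the pore subunit Kir6.1, encoded by Kcnj8, and the sulfonylurea receptor SUR2, encoded by Abcc9, and it links the metabolic state of the cell to its membrane potential. The sister channel of beta cells and many neurons uses Kir6.2 and SUR1, encoded by Kcnj11 and Abcc8.

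Bulk RNA-seq was made from retinal cells sorted by FACS for the surface marker Thy1.2 to enrich retinal ganglion cells (RGCs). The development dataset held uninjured WT mice of P1 (3 libraries), P14 (3) and P21 (2). The knockout dataset came from female mice homozygous for a floxed Kdm6a (UTX) allele with loxP sites around exon 3, labelled P42 and sampled 3 days after optic nerve crush. Of these, 2 libraries came from eyes injected intravitreally with AAV2-Cre (labelled UTX knockout) and 3 from eyes injected with AAV2-GFP (labelled GFP), so that floxed alleles, virus and crush were common to both groups. Cre was delivered by virus and not by a germline driver, so that cells not reached by it keep both alleles. The sources used here do not say how many animals went into a library, and p-values measure the spread between libraries. Dataset, age, genotype and injury change together between the 2 datasets and cannot be told apart, so that levels across them are given as a description.

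Total counts ran from 13637602 to 16070720 in the knockout dataset and from 30357454 to 38812917 in the development dataset. Levels are CPM, the counts of a gene scaled to a common library size, with TMM scaling factors set over all 13 libraries. A count of 0 allows up to 3 counts, which is 0.181 to 0.218 CPM in the knockout libraries. In AAV2-Cre libraries Kdm6a had 111 ± 1.10 CPM (SD, n = 2) and in AAV2-GFP libraries 110.0 ± 11.8 (SD, n = 3). Kdm6a counts were therefore not lower in the libraries labelled AAV2-Cre. The count is summed over the whole gene and does not check exon 3 itself. The RGC marker Rbpms ran from 614 to 677 CPM at P1 but from 0.602 to 3.13 CPM in the knockout libraries, where markers of rods and microglia were high (values below). Thy1, the gene of the sorting marker, had a mean of 544 CPM at P1, 191 at P14, 80.6 at P21, 22.4 with AAV2-GFP and 36.3 with AAV2-Cre. Bulk counts cannot tell fewer cells of a type from less RNA per cell.

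P1 replicate 3 stood apart from the other P1 libraries in these genes. It had the highest P1 value for 10 of 10 members, 1.72 (Notch3) to 5.45 (Higd1b) times the mean of the other P1 libraries, with a median of 3.43. Over 23844 genes, it was the highest of the P1 libraries for 34.3% and above 1.5 times the mean of the others for 8.71%. The summed CPM of 8 Müller glia markers was 2237 in this library against 5531 and 5879 in the others. The sum of 12 smooth muscle markers was 96.6 against 56.9 and 79.7. The sum of 16 endothelial markers was 160.2 against 266 and 302. The sum of 10 fibroblast genes was 73.8 against 45.5 and 60.8. The smooth muscle and fibroblast sums were thus highest where the pericyte genes were, and the Müller glia and endothelial sums were lowest there. Single endothelial genes had 0.267 (Flt1) to 4.39 (Tie1) times the mean of the other P1 libraries there, with a median of 1.04. P1 replicate 3 was the highest P1 library for 6 of these 16 genes. The part of these cell types in the level of the pericyte genes was not tested. Fold changes of the members and the lists from P1 are given with and without this library, and single genes of the lists where leaving it out changed the call.

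Of the 10 genes, 7 had an entry in the RefSeq promoter table (GRCm38.p6), which holds 250 bases before and 50 bases after the start of each gene. Pdgfrb, Higd1b and Cd248 had none there. Kcnj8 (chr6:142564837-142571614) and Abcc9 (chr6:142587862-142702315) lie side by side on the minus strand in GRCm38, with 16247 bases between the end of one gene and the start of the other. Their promoters are shown because both genes moved together through development, and that of Vtn because its level parted from the others in the injured adult. They read 5′ to 3′ along the gene, at chr6:142571565-142571864 (Kcnj8, minus strand), chr6:142702225-142702524 (Abcc9, minus strand) and chr11:78498870-78499169 (Vtn, plus strand). Capitals mark matches to the motifs named after them.
Kcnj8: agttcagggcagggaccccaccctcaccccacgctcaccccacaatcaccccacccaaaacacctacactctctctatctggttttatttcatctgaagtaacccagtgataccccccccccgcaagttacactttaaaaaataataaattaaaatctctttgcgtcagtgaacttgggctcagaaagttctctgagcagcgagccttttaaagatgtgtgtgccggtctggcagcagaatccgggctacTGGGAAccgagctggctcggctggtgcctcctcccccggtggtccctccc
Abcc9: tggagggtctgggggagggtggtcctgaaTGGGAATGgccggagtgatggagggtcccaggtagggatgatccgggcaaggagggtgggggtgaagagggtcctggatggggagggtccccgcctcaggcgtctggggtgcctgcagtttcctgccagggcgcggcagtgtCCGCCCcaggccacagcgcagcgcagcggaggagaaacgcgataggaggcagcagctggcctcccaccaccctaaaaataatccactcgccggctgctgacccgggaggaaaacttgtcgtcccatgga
Vtn: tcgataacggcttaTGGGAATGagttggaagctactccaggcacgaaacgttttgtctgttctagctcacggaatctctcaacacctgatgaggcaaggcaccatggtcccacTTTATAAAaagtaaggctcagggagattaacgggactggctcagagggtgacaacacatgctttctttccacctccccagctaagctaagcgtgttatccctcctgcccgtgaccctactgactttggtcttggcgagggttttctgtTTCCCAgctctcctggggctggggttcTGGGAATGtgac
Both strands were searched for 6 motifs. TGGGAA, bound by RBPJ, the nuclear partner of Notch receptors, was in 3 of the 7 promoters (Abcc9, Kcnj8 and Vtn) and in 25.6% of 32851 promoters of the same length. GGAATG, the letters of TEAD factors, was in 2 of the 7 (Abcc9 and Vtn) and in 14.7% of all. The run TGGGAATG in these promoters holds both motifs in overlap. The GC box, GGGCGG, was in 4 of the 7 (Abcc9, Anpep, Cspg4 and Notch3) and in 35.7% of all. The letters TATAAA were in 1 of the 7 (Vtn, on both strands in overlap) and in 13.6% of all. The Fox motif GTAAACA and the CArG box of smooth muscle genes were in 0 of the 7, against 3.65% and 1.63% of all promoters. A match of letters is a description and not a binding site, and 0 matches says only that these letters are not in this window. The GC content of these windows was 53.3% for Kcnj8, 65.7% for Abcc9 and 51.7% for Vtn, beside a median of 52.7%.

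The K-ATP channel genes of pericytes were high at P14 and low at P1, at P21 and in the injured adult. Kcnj8, the pore subunit, had 2.27, 3.33 and 11.9 CPM in the P1 libraries, 155, 138 and 140.5 at P14, and 14.6 and 13.2 at P21. Every P14 library lay above every P1 and P21 library, and both P21 libraries lay above the 3 at P1. Abcc9, the regulatory subunit, had 7.74, 9.46 and 24.9 CPM at P1, 408, 378 and 299 at P14, and 44.8 and 31.8 at P21, in the same order without overlap. The mean of Kcnj8 was 24.7 times higher at P14 than at P1 (51.7 times without P1 replicate 3), and that of Abcc9 25.8 times. Without P1 replicate 3 the fitted log2 fold change of Abcc9 was 5.35 in place of 4.66, and that of Kcnj8 5.65 in place of 4.59. At P21, Kcnj8 was at 9.61% and Abcc9 at 10.6% of the P14 mean.

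Per kilobase of exon, the pore gene lay above the receptor gene in 7 of the 8 development libraries, all but P1 replicate 1. Kcnj8 had 56.7 ± 3.64 CPM per kb at P14 and Abcc9 43.2 ± 6.76 (SD, n = 3). The ratio of Kcnj8 to Abcc9 per kb was 1.23 ± 0.32 at P1 (n = 3), 1.33 ± 0.19 at P14 (n = 3) and 1.22 ± 0.21 at P21 (n = 2, SD each), so that it moved less between ages than between libraries of 1 age. In the knockout libraries the pore gene had more of the reads. Kcnj8 had 69 and 63 counts in the AAV2-Cre libraries and 15, 55 and 54 with AAV2-GFP, while Abcc9 had 0 and 6, and 0, 19 and 34. The ratio per kb was 34.5 in AAV2-Cre replicate 2, 9.51 in AAV2-GFP replicate 2 and 5.22 in AAV2-GFP replicate 3, and could not be formed in the libraries without an Abcc9 count. At these counts it is imprecise, but all 3 values lay above the highest of development, 1.58.

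The other K-ATP channel pair did not share this course. Kcnj11 had 4.63 ± 0.12 CPM per kb at P1, 3.51 ± 0.17 at P14 and 4.37 ± 0.16 at P21, and Abcc8 had 3.92 ± 0.21, 5.62 ± 0.10 and 5.02 ± 0.43. From P1 to P14 the edgeR log2 fold change was -0.43 for Kcnj11 (SE 0.08, adjusted p = 0.000892) and 0.49 for Abcc8 (SE 0.07, adjusted p = 0.00016). These are less than the limit of 1 set for a call, and neither gene was called in any of the 3 comparisons. Per kb, Kcnj11 was above Kcnj8 at P1 in 2 of 3 libraries and below it in every P14 library.

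**Figure D1:**
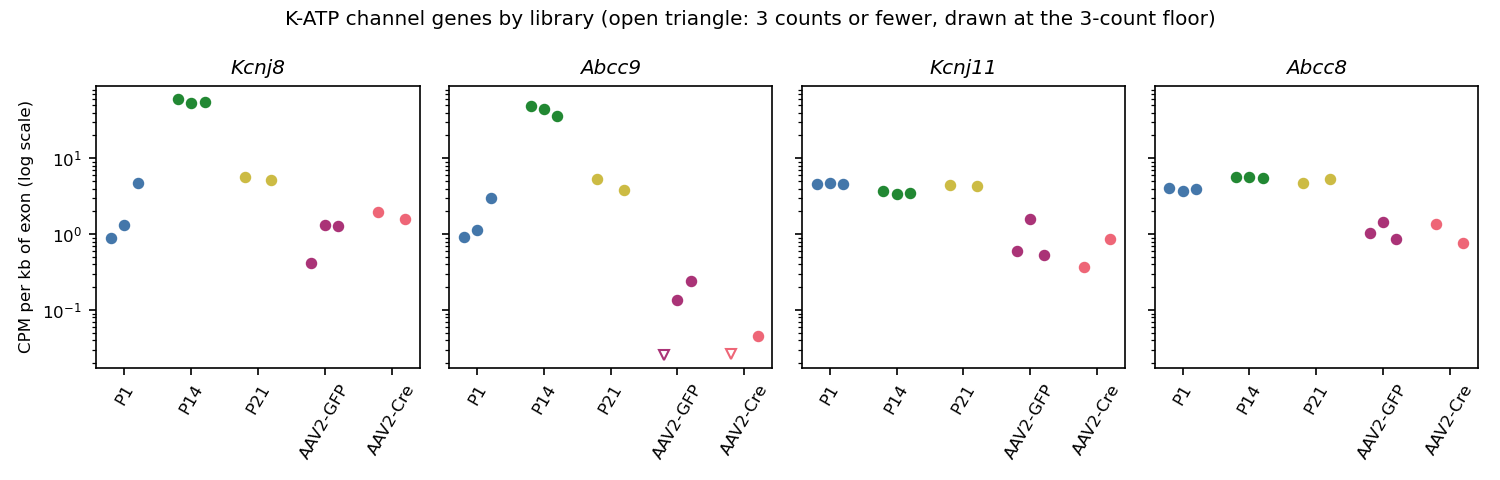
Levels of both K-ATP channel pairs in CPM per kb of exon (log axis) in each of 13 libraries, grouped by age or virus. Kcnj8 and Abcc9 peak at P14 near 56.7 and 43.2, Kcnj11 and Abcc8 stay between 3.51 and 5.62 on average through development, and in the knockout libraries Abcc9 lies lowest of the 4 in each library, at or near the floor of 3 counts in those of 0 and 6 counts.

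Both receptors among the markers followed the same order. Pdgfrb, the receptor through which endothelial PDGF recruits pericytes, had 28.1, 31.7 and 52.8 CPM at P1, 637, 583 and 526 at P14, and 193 and 179 at P21. It kept the largest share of its P14 level at P21 among the 10 genes, 32.0%. Notch3, the Notch receptor of mural cells, had 21.2, 27.8 and 42.3 CPM at P1, 367, 359 and 322 at P14, and 80.8 and 49.8 at P21. Its mean rose least, 11.5-fold (14.2-fold without P1 replicate 3), and the lower P21 library came close to the highest P1 library. In the knockout libraries, Pdgfrb had 7.33 and 13.2 CPM with AAV2-Cre and 6.54, 12.9 and 3.19 with AAV2-GFP, below every P1 library. Notch3 had 14 and 53 counts with AAV2-Cre, and 39, 49 and 1 with AAV2-GFP. Gm17276, which overlaps Notch3 on the other strand, had 8 to 59 counts over all libraries, and since the strand setting of the counting is not given in the sources used here, so few Notch3 counts are uncertain.

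The genes of 3 surface proteins also peaked at P14. Cspg4, the NG2 proteoglycan, had 5.47, 6.44 and 21.8 CPM at P1, 309, 281 and 255 at P14, and 30.6 and 22.7 at P21. Cd248, endosialin, had 3.65, 4.16 and 13.3 CPM at P1, 139.8, 132 and 120.0 at P14, and 8.78 and 7.69 at P21, so that its P21 libraries lay between the P1 libraries. Its share of the P14 level at P21 was the lowest of the 10, 6.31%. Anpep, aminopeptidase N, was the lowest of them per kb at P14, with 13.3 CPM per kb. It had 1.00, 1.17 and 4.49 CPM at P1, 59.1, 58.2 and 47.8 at P14, and 5.71 and 4.45 at P21, where the lower P21 library was just under the highest of P1. In the knockout libraries Cspg4 had 1 and 5 counts with AAV2-Cre and 0 in each of the 3 AAV2-GFP libraries. Cd248 had 11 and 22 counts with AAV2-Cre and 18, 0 and 0 with AAV2-GFP. Anpep stayed higher there, with 4.79 and 2.37 CPM with AAV2-Cre and 3.73, 3.81 and 13.0 with AAV2-GFP.

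Rgs5, a GTPase-activating protein that limits G protein signalling in mural cells, was the highest of the 10 at P14. The gene lies at chr1:169655501-169695813 on the plus strand. It had 45.4, 73.2 and 205 CPM at P1, 2603, 2597 and 2378 at P14, and 465 and 263 at P21. Per kb it reached 556 CPM at P14, above Vtn (212), Pdgfrb (106) and Higd1b (77.2). Below these came Kcnj8 (56.7), Cd248 (50.1), Notch3 (43.2), Abcc9 (43.2), Cspg4 (23.6) and Anpep (13.3 CPM per kb), where the libraries of Abcc9 overlapped those of Notch3 and of Cd248. Higd1b, a small mitochondrial protein of the hypoxia-induced gene domain family, had 0.588, 1.45 and 5.55 CPM at P1, 68.0, 65.7 and 62.4 at P14, and 9.60 and 4.63 at P21. Its P21 libraries differed 2.07-fold, the widest gap between them among the 10 genes, and overlapped with P1. In the knockout libraries it had 6 and 0 counts with AAV2-Cre, and 7, 0 and 26 with AAV2-GFP.

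Vtn, which encodes vitronectin, an adhesive protein of basement membrane and plasma that integrins bind, followed the others in development and parted from them in the injured adult. The gene lies at chr11:78499091-78502324 on the plus strand. It had 11.7, 12.3 and 30.5 CPM at P1, 460.1, 418 and 412 at P14, and 95.4 and 80.2 at P21. In the knockout libraries it had 153 and 294 CPM with AAV2-Cre and 342, 304 and 243 with AAV2-GFP. All 5 lay between the P21 and the P14 libraries, and Vtn was the 1 member of 10 whose knockout libraries all lay above P1, an order that 30.0% of 23844 genes had. Its mean there was 62.1% of the P14 mean, while Abcc9, Kcnj8, Pdgfrb, Rgs5, Notch3, Anpep, Higd1b and Cd248 were at 0.198% (Abcc9) to 10.1% (Anpep). The summed CPM of 12 rod markers was 13358 and 29139 in the AAV2-Cre libraries and 35159, 27786 and 30388 with AAV2-GFP, against 1081 to 1253 at P14. AAV2-Cre replicate 1 thus had the lowest value of the knockout libraries for Vtn and for the rod sum. AAV2-GFP replicate 1 had the highest for both. In the other libraries the orders were opposite. Among them Vtn was lowest in AAV2-GFP replicate 3 and highest in AAV2-GFP replicate 2, and the rod sum the reverse. The part of rods in the Vtn level was not tested.

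**Figure D2:**
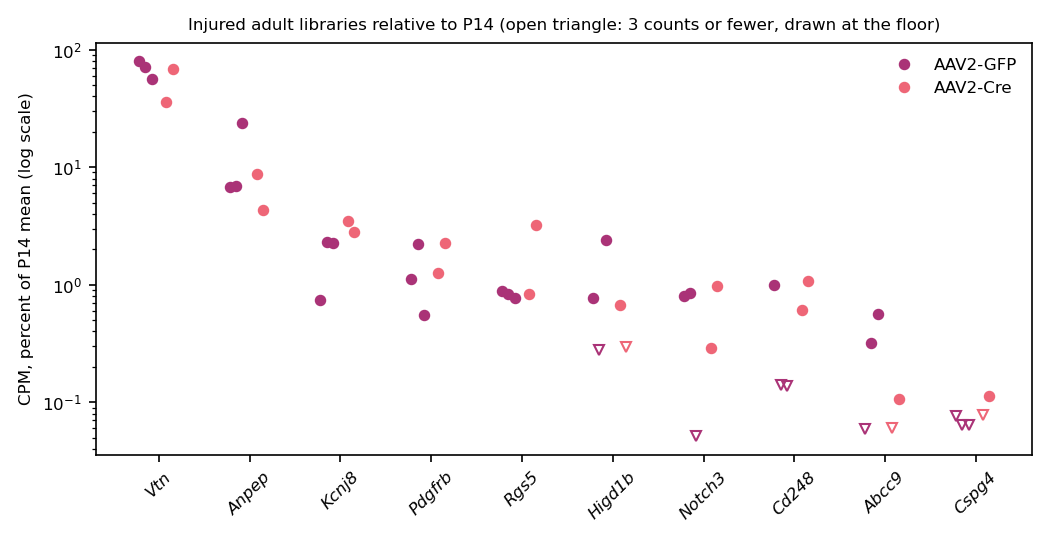
Level of each pericyte gene in the 5 knockout libraries as percent of its P14 mean (log axis), with open triangles for 3 counts or fewer drawn at the floor of 3 counts. Vtn lies highest, with a mean of 62.1%, Anpep follows at 10.1% and Cspg4, with 6 counts in all, lies lowest.

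**Figure D3:**
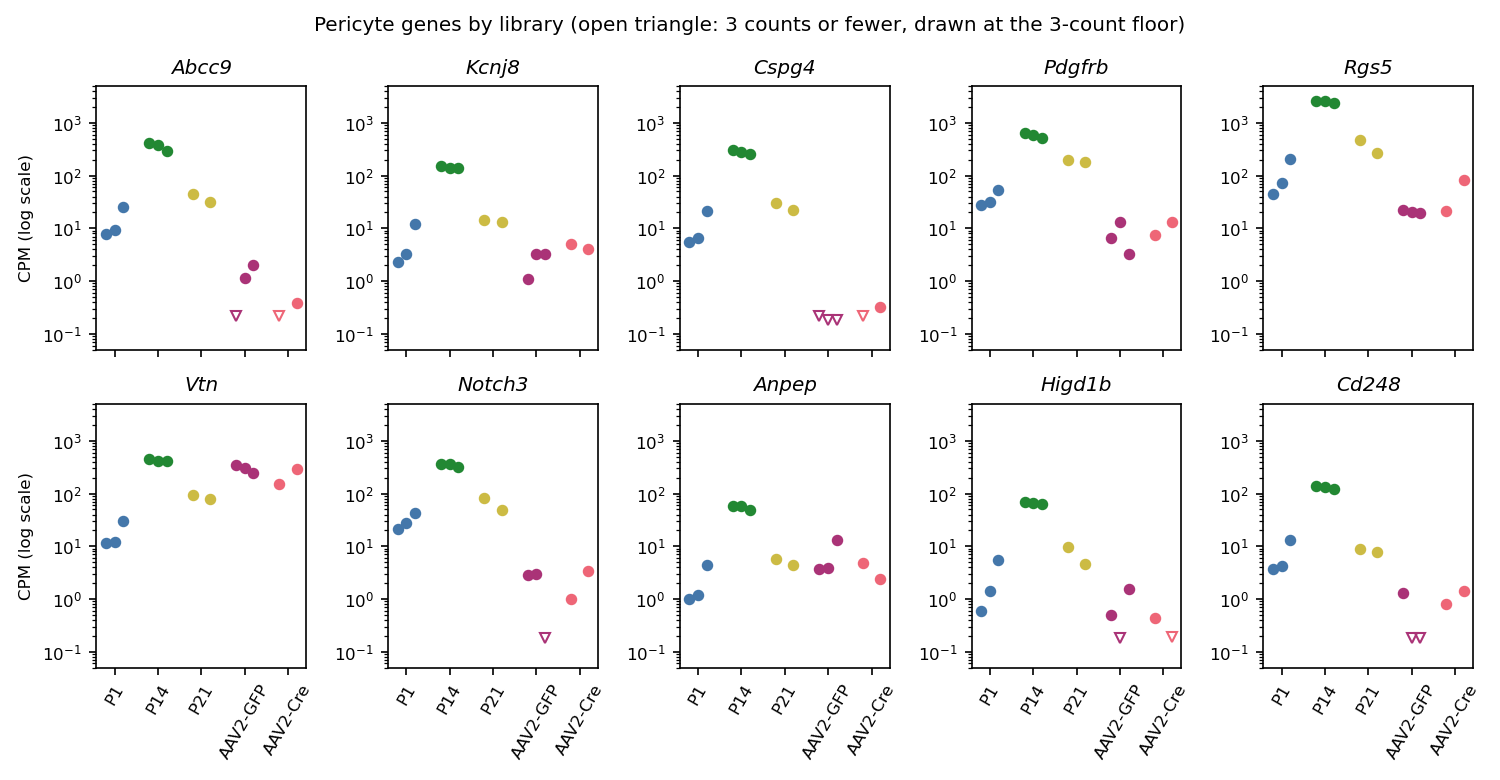
CPM (log axis) of the 10 pericyte genes in each of 13 libraries by group, with open triangles for 3 counts or fewer drawn at the floor of 3 counts. For every gene the 3 P14 libraries lie above all others, and of the 10 genes Vtn alone has its knockout libraries, at 153 to 342 CPM, above those of P21.

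Over the 10 genes the size of the rise and of the fall differed. The mean at P14 was 11.5 (Notch3) to 25.8 (Higd1b) times that at P1, with a median of 24.2, and 14.2 to 64.2 times without P1 replicate 3. The edgeR log2 fold changes of P14 over P1 ran from 3.49 (Notch3) to 4.66 (Abcc9), with a median of 4.56, or 5.36 without P1 replicate 3, beside -0.014 for 20890 genes tested. At P21 the mean was 6.31% (Cd248) to 32.0% (Pdgfrb) of that at P14, with a median of 10.7%. The log2 fold changes of P21 over P14 ran from -1.59 (Pdgfrb) to -3.93 (Cd248), with a median of -3.16. Called here means an adjusted p under 0.05 (Benjamini-Hochberg over all genes tested) and a log2 fold change beyond 1. All 10 genes passed these limits as higher in P14 over P1, where 19.7% of genes did, and as lower in P21 over P14, where 9.21% did. Since the genes were chosen with this course known, these counts describe the choice and no p is given. The comparisons share the P14 libraries.

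The lowest P14 library lay above the highest P1 library for 10 of 10 genes (34.2% of 23844 genes), above the highest P21 library for 10 (31.3%) and above the highest knockout library for 10 (36.5%). Both P21 libraries lay above every P1 library for 7 genes (34.7%), all but Anpep, Higd1b and Cd248, and above P1 replicates 1 and 2 for 10 (36.5%). Every P1 library lay above every knockout library for Abcc9, Cspg4, Pdgfrb, Notch3 and Cd248, 5 of 10 (36.0%). AAV2-Cre replicate 2 had Rgs5 above the lower P1 libraries.

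Genes of the pathways and cells around these markers were read from 9 lists written with earlier results known. Their calls and adjusted p in development therefore describe these genes and are not tests independent of that choice. Over these lists, 65 genes rose and 2 fell from P1 to P14, where 19.7% of all genes rose and 15.2% fell. From P14 to P21, 44 genes were called and each fell, where 9.21% of all genes fell and 2.70% rose. Without P1 replicate 3, 65 rose and 2 fell in the first step, and 44 fell and 1 rose in the next.

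In PDGF signalling, 3 of 5 tested genes rose to P14 and 3 of 5 fell by P21. Pdgfra, the receptor of oligodendrocyte precursors, astrocytes and fibroblasts, rose from 28.9 ± 13.4 to 544 ± 33.6 CPM (SD, n = 3 each; log2 fold change 4.21, SE 0.36, adjusted p = 3.62e-06, edgeR). Olig1 and Sox10, markers of oligodendrocyte precursors, which also carry NG2, had no more than 9 counts in any library, and Olig2 had at most 135 counts at P1 and 56 at P14. The ligand Pdgfb, made by endothelium, had 8.05 ± 1.90 CPM at P1 and 15.8 ± 1.47 at P14 (SD, n = 3 each), just under the fold limit (log2 fold change 0.94, and 1.13 and called without P1 replicate 3). It fell at P21 (log2 fold change -2.19, SE 0.22, adjusted p = 9.98e-05). Pdgfa also fell at P21 (-1.39, SE 0.11, adjusted p = 3.16e-05), and Pdgfd rose at P14 (2.90, SE 0.21, adjusted p = 1.13e-06).

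In Notch signalling 7 of 13 tested genes rose and 1 fell from P1 to P14, and 4 fell from P14 to P21. Of its most abundant genes, Notch1, Notch2 and the target Hes1 rose to P14 (log2 fold changes 1.90, 2.56 and 2.39) and were not called at P21 (0.19, 0.41 and 0.65), where Notch3 had its lower level. The ligand Jag2 fell to P14 (-1.18, SE 0.06, adjusted p = 8.42e-08). All 7 genes of vitronectin partners rose to P14, and 3 of them fell by P21. The integrin chains Itgav and Itgb5 rose to P14 (2.03 and 2.80) and were not called at P21 (0.60 and 0.052), when Vtn was at 20.4% of its P14 level. In the R4 family of Rgs genes, 4 of 6 rose and 1 fell to P14, and 2 of 6 fell by P21. Rgs4, a neuronal member, fell in both steps (-1.20, adjusted p = 6.48e-05, and -2.32, adjusted p = 2.96e-05), while Rgs5 was high at P14. Rgs2 and Rgs8 rose to P14 (1.27 and 1.32) and were not called at P21 (-0.19 and -0.49). The rise and fall was not particular to Rgs5 in this family. Rgs1 rose to P14 (4.87, SE 0.51, beside 4.53 for Rgs5). At P21 it was at 3.96% of its P14 mean, against 14.4% for Rgs5. Unlike Rgs5, Rgs1 was highest in the knockout libraries, with a mean of 236 CPM, or 6023% of its P14 mean.

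Genes of other vessel wall cells were also high at P14. Of 13 other pericyte genes tested, 11 rose to P14 and 10 fell by P21. Gja4, the gap junction protein Cx37, rose (log2 fold change 3.99, SE 0.28, adjusted p = 8.04e-07) and fell (-2.66, SE 0.30, adjusted p = 0.000166). Cox4i2, a subunit of cytochrome oxidase, rose to P14 (2.71, SE 0.24, adjusted p = 4.23e-06) but was at 138 CPM at P21 against 115 at P14 (0.32, SE 0.24, adjusted p = 0.334). Of 11 smooth muscle genes tested, 10 rose and 8 fell. Acta2, smooth muscle actin, had 11.1 ± 6.25, 229 ± 9.48 and 53.6 ± 26.0 CPM at P1, P14 and P21, and Myh11 had 9.65 ± 5.57, 157 ± 3.95 and 47.9 ± 20.1. Cnn1, calponin, had at most 54 counts in any library, and its rise (1.32) was not called without P1 replicate 3 (1.14, adjusted p = 0.111). Of 16 endothelial genes, 16 rose and 9 fell. Their summed CPM had a mean of 243 at P1, 1580 at P14 and 1852 at P21, so that the sum did not peak at P14. Single genes mostly did otherwise: from P14 to P21 the fitted change was negative for 13 of the 16 and positive for 3. The markers Pecam1, Cdh5 and Cldn5 were at 34.1%, 24.7% and 19.3% of their P14 mean at P21. Kdr and Flt1 were at 113% and 216% of theirs. Kdr and Flt1, receptors for VEGF, were not called at P21 (log2 fold changes 0.23 and 1.17, adjusted p = 0.329 and 0.055), and Tie1 fell (-2.93, SE 0.49, adjusted p = 0.00162). Of 8 fibroblast genes tested, 7 rose and 5 fell. Lum and Dcn, markers of that cell type, had at most 8 and 37 counts in any library. The collagen genes Col1a1 and Col3a1 of the same list rose (3.66 and 4.25) and fell (-1.38 and -1.95). The summed CPM of the fibroblast list was 45.5 to 73.8 at P1, with a mean of 692 at P14 and 270 at P21. This sum thus peaked at P14, where the pericyte genes did. The part of fibroblasts in the level of the pericyte genes was not tested. The median log2 fold change of P14 over P1 was 3.85 for other pericyte genes, 2.98 for smooth muscle, 3.29 for endothelial and 3.63 for fibroblast genes, and that of P21 over P14 -2.58, -1.43, -1.40 and -1.35. Without P1 replicate 3 the medians of P14 over P1 were 4.15, 2.96, 3.23 and 3.70.

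**Figure D4:**
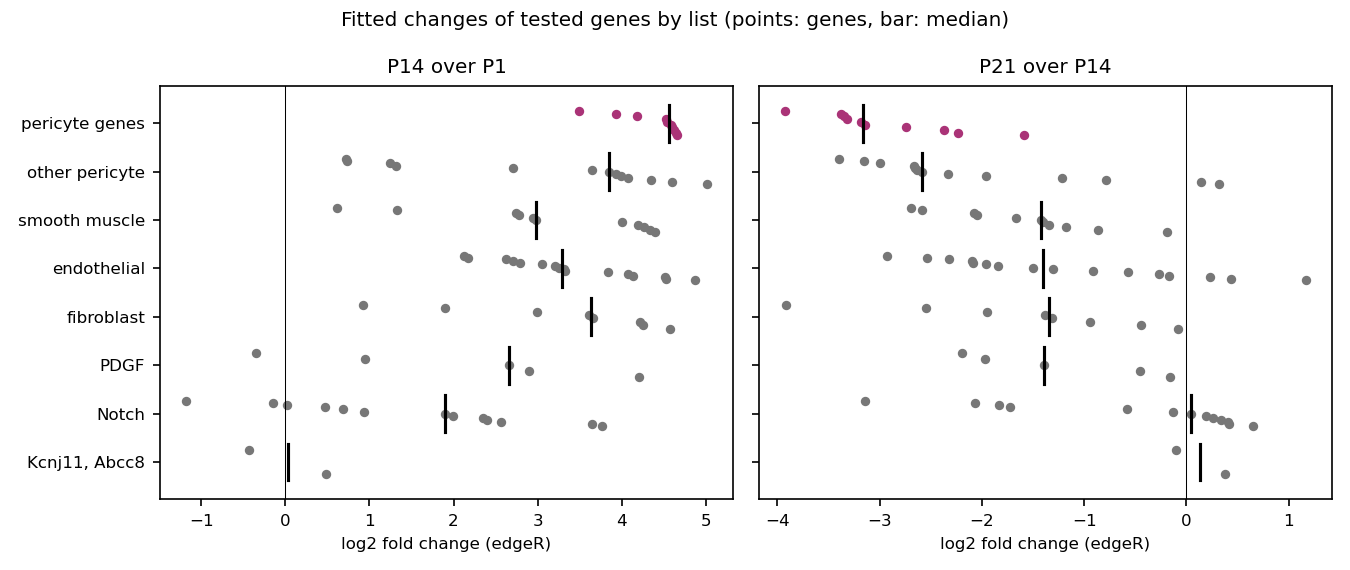
Fitted log2 fold changes of the tested genes of each list for P14 over P1 (left) and P21 over P14 (right), 1 point a gene, with the median as a bar. The pericyte genes lie between 3.49 and 4.66 on the left and between -3.93 and -1.59 on the right, while Kcnj11 and Abcc8 lie near 0 in both.

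Marker sums of other retinal cells also differed between these ages. The summed CPM of 8 Müller glia markers had a mean of 4549 at P1, 21146 at P14 and 38525 at P21, where the pericyte genes were low. That of 9 microglia markers was 32.3, 304 and 90.6, in the order of the pericyte genes. That of 12 rod markers was 162, 1174 and 692, in the same order, and that of 9 RGC markers was 6006, 1042 and 432. In the knockout dataset the microglia sum was 6878 with AAV2-GFP and 8236 with AAV2-Cre, and the RGC sum 322 and 307. The sum over 7 lymphocyte markers was at most 1.57 in development, 165 with AAV2-GFP and 333 with AAV2-Cre, and that over 6 oligodendrocyte lineage markers 45.6 (P14) to 91.1 (AAV2-Cre). The part of these cells in the level of the pericyte genes was not tested.

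Across the 13 libraries, the genes whose log2 CPM was most like the mean course of the 10 members were Lama2 (Pearson r = 0.986), Ehd2 (0.986), Cst3 (0.978), Dock6 (0.978), Arc (0.977), Uaca (0.975), Nes (0.974) and Myl9 (0.974). Lama2 encodes a laminin chain of basement membranes, Nes the intermediate filament nestin and Myl9 a myosin light chain of smooth muscle. These r describe 13 libraries in 5 groups that share dataset and age, with no p. With the 8 development libraries alone, 1 of these 8 genes, Arc, remained, and Nid1 (0.999) and Itga1 (0.997) led. Single members had their closest gene outside the 10 in Afap1l1 for Abcc9 (0.984), Itga1 for Kcnj8 (0.980), Actn1 for Cspg4 (0.991), Nes for Pdgfrb (0.993), Uaca for Rgs5 (0.987), Sgce for Notch3 (0.986), Klf4 for Anpep (0.944), Kcnip2 for Higd1b (0.960), Atpaf2 for Cd248 (0.962) and Lima1 for Vtn (0.974). Over 13 libraries, Vtn had the lowest r with the mean of the members, 0.209, and over the 8 of development it had 0.986. Each member is part of that mean, which raises its r. With single other members, Vtn had r from -0.054 (Cspg4) to 0.713 (Anpep) over 13 libraries.

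AAV2-Cre against AAV2-GFP is the comparison that the choice of these genes did not use. It sets the virus given to delete Kdm6a against the GFP virus in injured eyes, where Kdm6a counts were not lower with AAV2-Cre. Of the 10, 8 passed the low-count filter (Cspg4 and Higd1b did not) and 0 were called by edgeR or by DESeq2, where edgeR called 1.13% of 18395 genes higher and 0.217% lower. DESeq2 gave no adjusted p for Abcc9 and Cd248. At an unadjusted p under 0.05 there was 1 of 8, Rgs5, a share of 12.5% beside 16.5% of all genes tested. Levels were low: apart from Vtn and Rgs5, no member exceeded 13.2 CPM in a knockout library.

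Rgs5 had 21.1 and 81.6 CPM in the AAV2-Cre libraries and 22.3, 20.9 and 19.3 in the AAV2-GFP libraries. Only AAV2-Cre replicate 2 was high, and replicate 1 lay among the AAV2-GFP libraries. The edgeR log2 fold change was 1.26 (SE 0.45, adjusted p = 0.202), and without AAV2-Cre replicate 2 it was -0.012. Without the low-count filter Rgs5 was called (1.27, adjusted p = 1.35e-05), and it was not called under the other settings, with adjusted p up to 0.996.

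Kcnj8 had 5.01 and 4.03 CPM with AAV2-Cre and 1.08, 3.32 and 3.25 with AAV2-GFP, so that the groups did not overlap. By listed value every AAV2-Cre library was above every AAV2-GFP library for 2 of the 10 members, Kcnj8 and Cspg4 (16.9% of 23844 genes), and below for 0 of 10 (13.5%). The 1 count of Cspg4 in AAV2-Cre replicate 1 is within the 3 counts that a count of 0 allows, so that its groups are not separated. The log2 fold change of Kcnj8 was 0.77 (SE 0.59, adjusted p = 0.579, edgeR). Abcc9, its partner, had the opposite sign, -2.45 (SE 1.79, adjusted p = 0.557), on 0 and 6 counts against 0, 19 and 34, and neither gene passed the test. Leaving out 1 library moved Abcc9 from -7.05 (without AAV2-Cre replicate 2) to -1.48 (without AAV2-Cre replicate 1). Vtn was lower on average with AAV2-Cre (-0.44, SE 0.27, adjusted p = 0.461), with replicate 1 alone below the AAV2-GFP libraries, and -0.015 without it. Pdgfrb (0.39, SE 0.55) and Notch3 (0.15, SE 1.14) were closest to 0, and both turned negative without AAV2-Cre replicate 2 (-0.081 and -0.95). Anpep (-0.98, SE 0.65) rested on AAV2-GFP replicate 3, without which it was -0.10. Cd248 (1.36, SE 1.65) rested on 51 counts in all and was 0.80 to 7.09 with 1 library left out, the highest when AAV2-GFP replicate 1 was dropped and both remaining AAV2-GFP libraries had 0 counts. The median of the 8 was 0.27, beside -0.028 for all genes tested, and it ran from -0.55 without AAV2-Cre replicate 2 to 0.81 without AAV2-GFP replicate 2. With SE of this size, the missing calls do not show that the genes were equal in both groups.

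**Figure D5:**
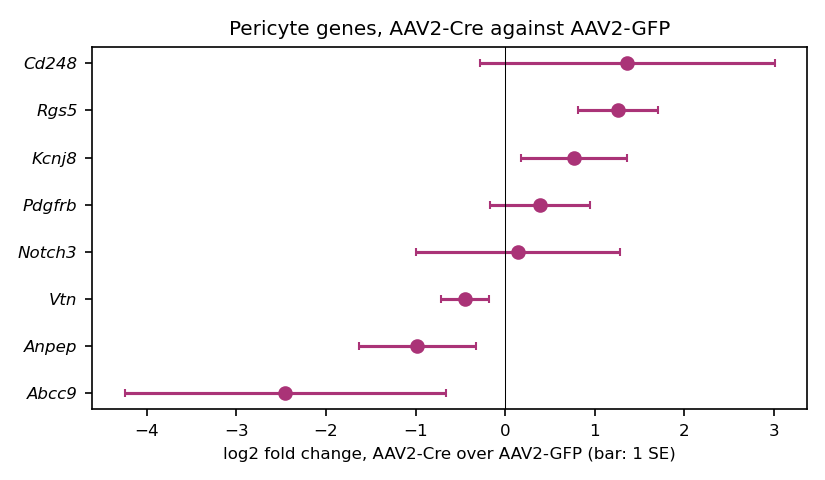
edgeR log2 fold changes of AAV2-Cre over AAV2-GFP for the 8 pericyte genes tested, with bars of 1 SE. Rgs5 at 1.26 and Cd248 at 1.36 lie highest and Abcc9 at -2.45 lowest, 0 of the 8 were called, and Abcc9 and Cd248 rest on 59 and 51 counts in all.

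Of 66 genes of the related lists tested between the libraries labelled AAV2-Cre and AAV2-GFP, edgeR called 1 higher (1.52%, beside 1.13% of all genes) and 1 lower (1.52%, beside 0.217%). They are named for that after their values were seen, and a single call in 66 is no result about the lists. Jag1, a Notch ligand of endothelium and other cells, had 41.9 and 49.8 CPM with AAV2-Cre and 107, 89.2 and 93.2 with AAV2-GFP (log2 fold change -1.11, SE 0.17, adjusted p = 0.0216, edgeR). Without 1 library its log2 fold change ran from -1.23 to -0.96, and the call was lost without AAV2-Cre replicate 1, AAV2-Cre replicate 2 or AAV2-GFP replicate 2 (adjusted p = 0.252, 0.118 and 0.0596). P2ry14, a receptor for UDP sugars on the list of other pericyte genes, had 28.1 and 33.4 CPM with AAV2-Cre and 14.9, 13.9 and 12.6 with AAV2-GFP (1.12, SE 0.22, adjusted p = 0.0481). That call was lost without any 1 of the 5 libraries (adjusted p = 0.0777 to 0.297), with log2 fold changes of 1.00 to 1.27. A fit without an AAV2-Cre library has 1 library in that group, whose spread is then taken from the other group, and called only 8 or 5 of all genes, each higher, so that losing a call there says little of these genes. Both genes had groups that did not overlap, Jag1 with AAV2-Cre below (13.5% of 23844 genes) and P2ry14 with AAV2-Cre above (16.9%). They were picked by this same comparison, so that the order adds nothing to the calls.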

How the data were processed

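Whole-number counts per gene were deposited for 13 bulk RNA-seq libraries. The authors' processing used FastQC 0.11.9 for read quality, Trimmomatic 0.39 for trimming and HISAT2 2.2.1 for alignment to GRCm38, and they made the count table with featureCounts of Subread 2.0.3, without normalization. The annotation release and strand setting are not given in the sources used here. Gene IDs without version matched a symbol for 52403 of 52550 genes. Exon lengths and positions came from the GENCODE vM21 annotation of GRCm38. CPM used TMM factors over all 13 libraries. With R 4.3.3 and edgeR 4.0.16, the 5 knockout and the 8 development libraries were fitted separately (glmQLFit, glmQLFTest, filterByExpr, TMM), and p-values were adjusted over all genes tested. The other tool was DESeq2 1.42.0. The script was tested on simulated data. Likeness was Pearson r of log2 CPM (prior count 2) among genes whose mean log2 CPM was 3 or more.

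The 10 members and all lists were chosen with earlier results of these data known. The text names all members, up to 4 genes of each related list and up to 2 of each other cell type by highest mean CPM, markers that define a cell type, and the 8 most alike genes. Alternatives changed the tool (DESeq2), the scaling (DESeq2 size factors, or library size alone), the low-count filter (none, or 10 counts in each library), the fold limit (none), the libraries fitted (all 13 together, or 1 left out) and the model (a replicate block). Likeness was repeated in the 8 development libraries. Replicates differed by more than sampling noise in every pair.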

Additional observations from a re-analysis of the deposited data

How the results depend on the processing

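The direction of the developmental course was the same in every alternative for all 10 pericyte genes. The median log2 fold change of P14 over P1 ran from 4.19 (without P1 replicate 1) to 5.36 (without P1 replicate 3), and that of P21 over P14 from -3.42 (without P21 replicate 1) to -2.86 (without P21 replicate 2).

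For AAV2-Cre over AAV2-GFP, 0 members were called under every setting but 1: without the low-count filter 1 member, Rgs5, was called (log2 fold change 1.27). The member median of 0.27 ran from -0.55 to 0.81 over the fits that left out 1 library. Without AAV2-Cre replicate 2, Pdgfrb (-0.081), Rgs5 (-0.012) and Notch3 (-0.95) changed sign, and without AAV2-GFP replicate 3 Notch3 did (-0.40). Over the fits without 1 library the highest values of these genes were 1.09, 1.97 and 0.80. The cause was not tested. Of the 9 related lists, 1 gene was called higher and 1 lower. Higher calls were 2 with DESeq2, 0 without scaling, 2 without the low-count filter and 4 in the fit of 13 libraries, which called 2 lower. Over the fits without 1 library, higher calls were 0 and lower calls 0 to 1. Over all genes, calls were 207 higher and 40 lower in edgeR, 436 and 215 with DESeq2, 576 and 236 without the filter, 651 and 381 in the fit of 13 libraries, and 5 to 242 higher and 0 to 28 lower without 1 library.

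Replicate numbers did not pair the libraries: deviations of same-numbered libraries had correlations from -0.04 to 0.02. With the replicate block the member median was -0.071, Notch3 changed sign (-0.64), and the related lists had 0 higher and 0 lower calls.

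In development, related genes called lower at P14 than at P1 went from 2 to 4 without the fold limit. Those called higher at P21 than at P14 went from 0 to 1 without the low-count filter, to 2 without the fold limit, and ran from 0 to 1 over the fits without 1 library. Of the 8 most alike genes, 1 remained with the 8 development libraries. Low counts limit what could be seen of Abcc9, Cspg4, Higd1b and Cd248 in the knockout libraries.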
